A study of Homo sapiens with 6 samples.

Results

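RAB30-DT is a long non-coding RNA gene whose promoter faces that of the protein-coding gene RAB30, and 6 libraries of SK-Hep1 cells in which RAB30-DT had been knocked down or not were used to describe it together with its neighbours. The 7 members were RAB30-DT, RAB30, PRCP, DDIAS, PCF11, ANKRD42 and CCDC90B, named for their position in 11q14 on chromosome 11, out of 62700 annotated genes. They are not all the genes there, and they were chosen with earlier results of these data known. All 7 passed the filter of a mean of at least 1 TPM, as did 14020 genes in all. TPM is a transcript level scaled for gene length and for a fixed total per library, so levels of different genes can be set side by side. SK-Hep1 is an established line taken from a liver cancer, and the study describes it as endothelial-derived. The 3 control libraries are titled shControl with a genotype label of WT, and the 3 knockdown libraries are titled shRAB30-DT with a genotype label of RAB30-DT knockdown. Both kinds of line were made by lentiviral delivery of a short hairpin RNA and puromycin selection, according to the study's methods. No age, time point or drug dose separates the groups. Nothing in the labels says that the 3 libraries of a group came from separate cultures, so each p below measures the spread between these libraries, which may be technical.

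A divergent transcript (the DT in the name) starts close to a coding gene and runs away from it on the other strand, and such pairs often share one nucleosome-depleted promoter. Some non-coding RNAs of this kind are known to affect the gene next to them, in which case lowering the RNA changes the neighbour's level, while others act elsewhere in the cell or have no known effect. The comparison here asks which neighbours of RAB30-DT differed in level between knockdown and control cells. A short hairpin RNA acts on the transcript and not on the DNA, so it leaves the promoter itself in place.

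On hg38, RAB30-DT (ENSG00000246067.10) spans chr11:83072052-83107789 on the plus strand with 19 annotated transcripts. RAB30 (ENSG00000137502.10) lies at chr11:82973133-83071923 on the minus strand, so the outermost annotated starts of the pair are 129 bases apart. PRCP (ENSG00000137509.12, chr11:82822936-82970584, minus strand) and DDIAS (ENSG00000165490.13, chr11:82899975-82958277, plus strand) lie on the RAB30 side. PCF11 (ENSG00000165494.12, chr11:83156988-83187451, plus strand), ANKRD42 (ENSG00000137494.14, chr11:83193712-83260694, plus strand) and CCDC90B (ENSG00000137500.10, chr11:83259081-83286390, minus strand) lie on the other side, downstream of RAB30-DT. In exon sequence the members hold between 36.9% and 43.7% G and C.

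By their RefSeq starts, RAB30 with RAB30-DT, PRCP with DDIAS, and ANKRD42-DT with ANKRD42 are divergent pairs, with starts 169, 92 and 43 bases apart. By the outermost annotated starts given above, those of PRCP and DDIAS are 70609 bases apart and DDIAS lies within PRCP. The DNA between the RefSeq starts is shown for the first and the last, because by those starts both genes of a pair run away from it. ANKRD42-DT begins at chr11:83193794 by its outermost annotated start, so its stretch lies within that gene. Its exons share 83 bases with those of ANKRD42. The RAB30 stretch also reaches past the outermost starts of both its genes. The stretch between PRCP and DDIAS lies within annotated exons of both and is not printed. The sequences are from the plus strand of hg38, with the starts of RefSeq on GRCh38.p14. Capitals mark, in the order found, an 8-base match to the cyclic AMP response element TGACGTCA with 1 mismatch, the NFY box CCAAT, and ACTACAA, a core shared by ZNF143 and THAP11 sites.
RAB30 to RAB30-DT, chr11:83071898-83072065: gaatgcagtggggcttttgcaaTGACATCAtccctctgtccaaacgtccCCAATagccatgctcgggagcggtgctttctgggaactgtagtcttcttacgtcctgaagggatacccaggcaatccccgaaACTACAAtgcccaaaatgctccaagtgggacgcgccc
ANKRD42-DT to ANKRD42, chr11:83193670-83193711: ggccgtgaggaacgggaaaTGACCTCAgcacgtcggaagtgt

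The stretch between RAB30 and RAB30-DT is 168 bases long and that between ANKRD42-DT and ANKRD42 is 42 bases long. The full palindrome TGACGTCA was in neither stretch, nor in the RefSeq promoter window (250 bases before to 50 after the start) of any of the 7 members, and 1.85% of all 35116 windows hold it. A match with at most 1 mismatch, searched for after the windows had been read, was in 11.84% of all windows, and among the members in those of RAB30-DT, RAB30 and ANKRD42. ACTACAA, searched on both strands, was in the windows of RAB30-DT and RAB30 and in 2.77% of all windows. CCAAT, also on both strands, was in 34.61% of all windows and in those of RAB30-DT, RAB30, PRCP, DDIAS and PCF11. The windows of RAB30-DT and RAB30 share 268 of their 300 bases, so a match in both is mostly the same letters read from either strand, as is that of DDIAS and PRCP, whose windows share 191 bases. Matches are letters in a window and by themselves say nothing of binding. The study reports by ChIP in HepG2 cells that the transcription factor CREB1 bound a predicted site in the RAB30-DT promoter. The study also reports luciferase assays with this promoter and lower RAB30-DT after CREB1 knockdown. Its ChIP primers match chr11:83071879-83071899 and chr11:83071940-83071959, and TGACATCA (chr11:83071920-83071927) lies between them. Whether TGACATCA is the site that the study predicted was not tested here, nor was binding in SK-Hep1 cells.

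The study's qPCR primers for RAB30-DT are shown because they place its own measure of knockdown on the transcript. It reports a qPCR check of knockdown efficiency in these cells, in a figure whose values its text does not give.
qPCR forward: aaggcgtccgaagaaatcgt
qPCR reverse: atctgctttcgctggttggt

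The forward primer matches chr11:83072635-83072654 on the plus strand and is contained in 16 of the 19 transcripts, and the reverse primer matches chr11:83072763-83072782 on the minus strand and is contained in 14. The TPM values given next cover all 19 transcripts together and do not resolve them.

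RAB30-DT, the target of the hairpin, was measured at 18.16, 11.51 and 13.91 TPM in the control libraries, in the order of their replicate numbers as throughout, against 11.94, 10.85 and 6.5 TPM in the knockdown libraries. The groups overlapped, since knockdown replicate 1 was above control replicate 2, and knockdown replicate 3 was the lowest of the 6 libraries. Its level averaged 14.5 ± 3.37 TPM without and 9.76 ± 2.88 TPM with knockdown (SD, n = 3 each), a ratio of 0.672. On the log2(TPM + 1) scale the difference (knockdown minus control) was -0.55 with a standard error of 0.27 and a 95% interval from -1.17 to 0.08. It did not pass the threshold, with an adjusted p of 0.355 in limma's moderated test with Benjamini-Hochberg adjustment over all 14020 genes. An exact two-sided permutation test of the log2 levels gave p = 0.2, where 3 libraries against 3 cannot go below 0.1. The log2 difference was -0.30 without knockdown replicate 3, the lowest library, and -0.24 with limma's arrayWeights, which weights each library by its own scatter. Those weights were 0.33, 3.00 and 0.32 for the control and 0.78, 4.39 and 0.95 for the knockdown libraries, so replicate 2 of each group weighed most. In bulk libraries, fewer cells with the transcript and less of it per cell cannot be told apart. Of its exon bases, 9.0% are shared with another annotated gene, namely COX5BP4 and LINC02951 on the opposite strand, which were at a mean of 0.135 TPM and at 0 in all libraries.

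RAB30 encodes a small GTPase of the Rab family that sits on the Golgi apparatus. It was at 4.82, 4.43 and 4.25 TPM in the control replicates and at 7.05, 5.43 and 7.28 TPM in the knockdown replicates. The 3 knockdown libraries all lay above the 3 controls, whereas for RAB30-DT the knockdown mean was the lower one. RAB30 averaged 4.50 ± 0.291 TPM without and 6.59 ± 1.01 TPM with knockdown (SD, n = 3 each), a ratio of 1.46. The difference was 0.46 on the log2(TPM + 1) scale (standard error 0.21, 95% interval from -0.03 to 0.94) and did not pass the threshold (adjusted p = 0.322, limma). The exact permutation test gave p = 0.1, the smallest it can give here. No exon base of RAB30 is shared with another annotated gene.

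ANKRD42, which encodes a protein with ankyrin repeats, differed most among the members. It was at 3.03, 2.58 and 3.47 TPM in the control replicates and at 5.68, 5.85 and 5.91 TPM in the knockdown replicates. All knockdown libraries were above all control libraries, and they lay closer together than for any other member relative to their mean. Its average was 3.03 ± 0.445 TPM without and 5.81 ± 0.119 TPM with knockdown (SD, n = 3 each), a ratio of 1.92. The log2(TPM + 1) difference was 0.76 (standard error 0.21, 95% interval from 0.28 to 1.25), which understates the change of a gene this low, since a pseudocount of 0.1 in place of 1 gave 0.93. Its unadjusted p of 0.00669 ranked 712 among the 14020 genes, and the adjusted p was 0.132 (limma), so it was not called. With arrayWeights the difference was 0.89 and passed the threshold (adjusted p = 0.00596). That fit rests mostly on replicate 2 of each group and called 9.18% of all genes as higher in knockdown cells. Over the 16 alternative settings that could be fitted, the adjusted p ran from 0.00596 to 0.431.

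The ANKRD42 value carries a limit of annotation. Of its 6751 exon bases, 638 are shared with the 3′ end of CCDC90B on the opposite strand, and CCDC90B had a mean level of 51.3 TPM against 4.42 TPM for ANKRD42. A further 400 bases are shared with the processed pseudogene RPL32P24 on the same strand, and 83 with ANKRD42-DT, the lncRNA that starts beside it on the opposite strand. The sources used here do not state whether reads were assigned by strand, so reads from these stretches may have been split between the genes. CCDC90B, given next, was also higher on average in knockdown cells. Whether its reads contributed to the ANKRD42 value was not tested.

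CCDC90B encodes a mitochondrial coiled-coil protein related to MCUR1, a regulator of the mitochondrial calcium uniporter. Its level was 57.78, 44.32 and 30.89 TPM in the control replicates and 66.71, 54.07 and 54.02 TPM in the knockdown replicates, so that control replicate 1 lay above knockdown replicates 2 and 3. The log2 difference was 0.42 (standard error 0.24, 95% interval from -0.13 to 0.98, adjusted p = 0.418 from limma), around means of 44.3 ± 13.4 and 58.3 ± 7.31 TPM (SD, n = 3 each). The exact permutation test gave p = 0.3. Without control replicate 3, the lowest library, the difference was 0.19.

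PRCP encodes a lysosomal carboxypeptidase that removes the last residue of a peptide where it follows a proline, as in angiotensin II, and it was the member with the highest level in every library. It was at 94.97, 71 and 42.87 TPM in the control replicates and at 98.23, 85.87 and 84.89 TPM in the knockdown replicates. The control replicates spanned a wider range than the knockdown replicates and overlapped them. The log2 difference was 0.43 (standard error 0.27, 95% interval from -0.20 to 1.06, adjusted p = 0.471 from limma), with means of 69.6 ± 26.1 and 89.7 ± 7.44 TPM (SD, n = 3 each) and p = 0.3 in the exact permutation test. It was 0.12 without control replicate 3, the lowest of the 6 libraries, and 0.69 without control replicate 1, the highest of its group.

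DDIAS, known as a suppressor of apoptosis after DNA damage, was at 23.03, 13.9 and 14.13 TPM in the control replicates and at 16.78, 16.97 and 11.94 TPM in the knockdown replicates. The groups overlapped, and the means of 17.0 ± 5.21 and 15.2 ± 2.85 TPM (SD, n = 3 each) differed by less than the spread between replicates. The log2 difference was -0.13 (standard error 0.25, 95% interval from -0.71 to 0.45, adjusted p = 0.836 from limma, exact permutation p = 0.8), and it was 0.10 without control replicate 1. PRCP and DDIAS overlap on opposite strands, but share only 282 exon bases, 5.3% of those of DDIAS.

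PCF11, a scaffold of the machinery that cleaves pre-mRNA at the poly(A) site, was at 39.83, 22.51 and 21.64 TPM in the control replicates and at 37.71, 31.27 and 22.12 TPM in the knockdown replicates. In both groups replicate 1 was the highest, and the groups overlapped. The log2 difference was 0.14 (standard error 0.29, 95% interval from -0.53 to 0.80, adjusted p = 0.852 from limma, exact permutation p = 0.9), with means of 28.0 ± 10.3 and 30.4 ± 7.83 TPM (SD, n = 3 each). It was 0.41 without control replicate 1, and -0.014 and -0.031 without control replicate 3 and knockdown replicate 1.

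**Figure D1:**
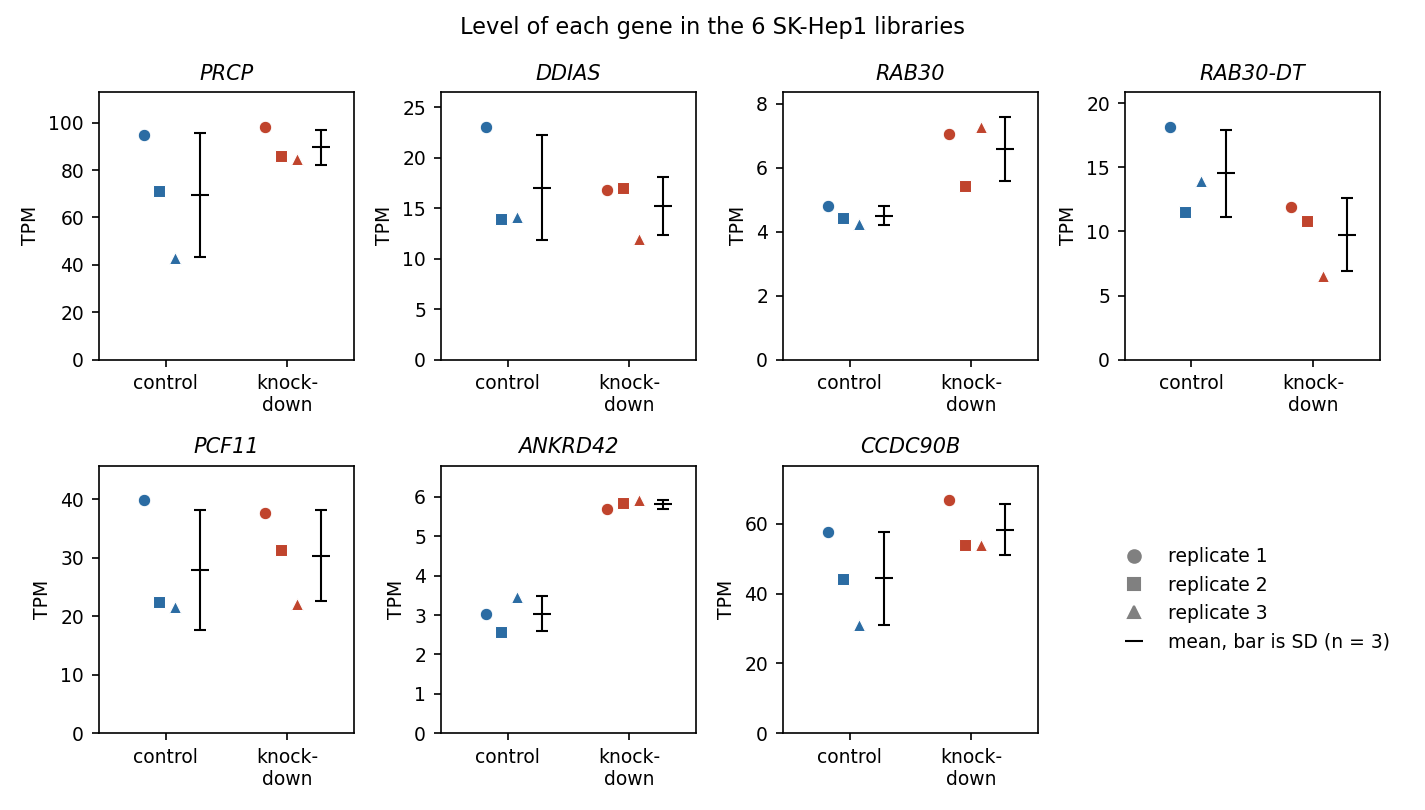
Level in TPM (linear axis from 0, scaled for each panel) of the 7 genes in the 3 control and 3 knockdown libraries, in order along the chromosome. Symbols are replicates and the bars are the mean and SD. The groups do not overlap for RAB30 and ANKRD42, and RAB30-DT, lower on average in knockdown cells, has knockdown replicate 1 (11.94 TPM) above control replicate 2 (11.51 TPM).

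None of the 7 members was called by limma at an adjusted p under 0.05, and 1 (ANKRD42) had an unadjusted p under 0.05. Of all genes tested, 1.04% were called, 0.371% were called as higher in knockdown cells, and 16.8% had an unadjusted p under 0.05. Of the 7, 5 were higher and 2 lower in knockdown cells, with a median log2 difference of 0.42 beside -0.04 over all 14020 genes, where 6489 were higher and 7531 lower. Without control replicate 3, the members' median was 0.12 beside -0.09 over all genes, with 4 higher and 3 lower. For 2 of the 7 members the knockdown libraries all lay above the controls, which held for 9.89% of all genes, and for none did they all lie below, which held for 13.4%. The intervals of the 6 neighbours leave room for log2 differences of up to 0.45 (DDIAS) to 1.25 (ANKRD42) upwards, so a moderate change of each was not detectable with 3 libraries per group.

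The order of the levels was the same in the 3 control libraries, with PRCP highest, then CCDC90B, PCF11, DDIAS, RAB30-DT, RAB30 and ANKRD42. Neighbours in this order whose control values overlapped were PRCP and CCDC90B, CCDC90B and PCF11, PCF11 and DDIAS, and DDIAS and RAB30-DT, whereas RAB30-DT lay above RAB30, and RAB30 above ANKRD42, in all control libraries without overlap. Knockdown replicate 1 had this order too. In knockdown replicate 2 ANKRD42 was above RAB30, and in knockdown replicate 3 RAB30 was above RAB30-DT.

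Because 2 transcripts read in the same library share its depth and handling, RAB30-DT was also set against each neighbour within each library, as the difference of their log2(TPM + 1) levels. For RAB30, this log2 ratio was 1.72, 1.20 and 1.51 in the control libraries against 0.68, 0.88 and -0.14 in the knockdown libraries. In plain TPM, RAB30-DT was 3.77, 2.60 and 3.27 times the level of RAB30 in control cells and 1.69, 2.00 and 0.893 times in knockdown cells. The groups did not overlap, with a mean log2 ratio of 1.48 ± 0.259 without and 0.47 ± 0.544 with knockdown (SD, n = 3 each). The difference of -1.0 had an exact two-sided permutation p of 0.1, the smallest possible.

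The same held for the other 5 neighbours, with differences in the log2 ratio of -1.31 for ANKRD42, -0.97 for PRCP, -0.97 for CCDC90B, -0.68 for PCF11 and -0.42 for DDIAS. Each of the 6 ratios had an exact permutation p of 0.1, which stayed at 0.1 after Benjamini-Hochberg adjustment over the 6. All 6 share the RAB30-DT values, so they are not separate results. Set against every other tested gene in the same way, RAB30-DT gave ratios without overlap and lower in knockdown cells for 32.9% of 14019 genes.

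**Figure D2:**
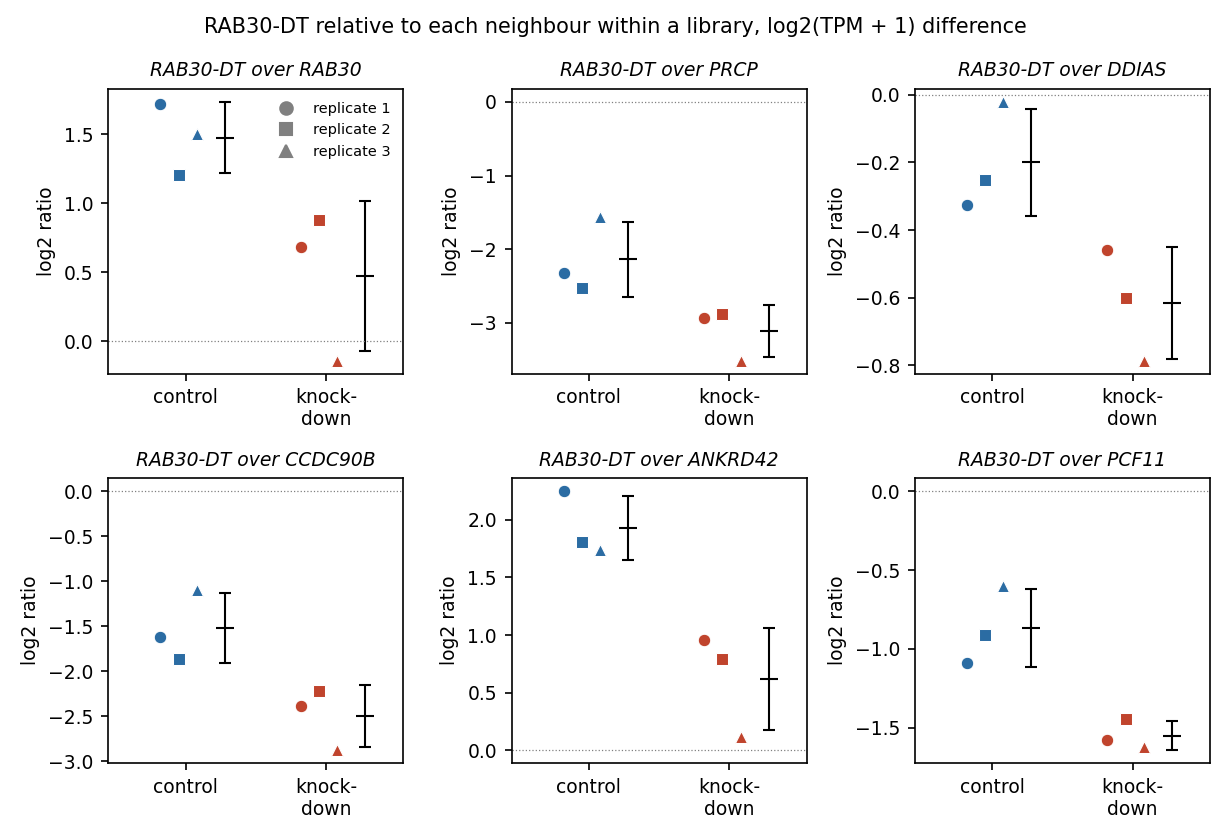
Log2 ratio of RAB30-DT to each neighbour within a library (difference of log2(TPM + 1), axes scaled for each panel), by group. Symbols are replicates, bars the mean and SD (n = 3), and the dotted line is an equal level. In every panel the 3 knockdown libraries lie below the 3 control libraries, from a difference of -0.42 for DDIAS to -1.31 for ANKRD42.

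Widening the view, 36 annotated genes lie at least partly within 1 Mb of the RAB30-DT start, of which 11 passed the filter. None was called by limma, and ANKRD42 alone had an unadjusted p under 0.05. The median log2 difference was 0.33, and 8 were higher and 3 lower in knockdown cells. That median was 0.12 without control replicate 3 and 0.18 without control replicate 2. The 4 that were not members had a median of 0.22. ANKRD42-DT was at 1.23, 4.21 and 1.86 TPM in the control replicates and at 3.26, 3.51 and 2.42 TPM in the knockdown replicates (log2 difference 0.33, adjusted p = 0.673 from limma). DLG2, a synaptic scaffold gene that starts 2556.3 kb away and reaches into the window with its 3′ end, was near the filter with a mean of 1.02 TPM and a log2 difference of 0.10 (adjusted p = 0.892, limma).

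The other 2 tested genes are pseudogenes of ribosomal proteins, RPL32P24 with a log2 difference of 0.66 (adjusted p = 0.676, limma) and RPS28P7, which was at 8.15 TPM in control replicate 1 and at 0 in the other 5 libraries. Reads of such copies can come from their parent genes, so their values are uncertain. With arrayWeights, RPL32P24 was called beside ANKRD42, with a log2 difference of 1.67 (adjusted p = 0.0414). That fit called 23.0% of all genes. Below the filter, and so not tested, the lncRNAs MIR4300HG and LINC02734 were listed at 0 in the 3 control libraries. In the knockdown libraries they were at 0.33, 0.84 and 1.89 TPM and at 0.32, 0.06 and 0.07 TPM. Values this low are near the floor, and the share of all genes below the filter with such a pattern was not counted.

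Within 250 kb, 9 of 24 genes were tested, the 7 members among them, with a median log2 difference of 0.42 that was 0.19 without control replicate 3. Within 5 Mb, 31 of 145 genes were tested, with 18 higher and 13 lower and a median of 0.05. None of the 31 was called by limma and 4 had an unadjusted p under 0.05, beside the 16.8% of all genes given above. With 1 library left out, the median within 5 Mb was -0.035 without control replicate 3, -0.017 without knockdown replicate 1, 0.13 without control replicate 1 and 0.17 without knockdown replicate 3. The windows are nested, so their medians are not separate values. Some of these genes share exons, and the medians describe the region and carry no test.

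**Figure D3:**
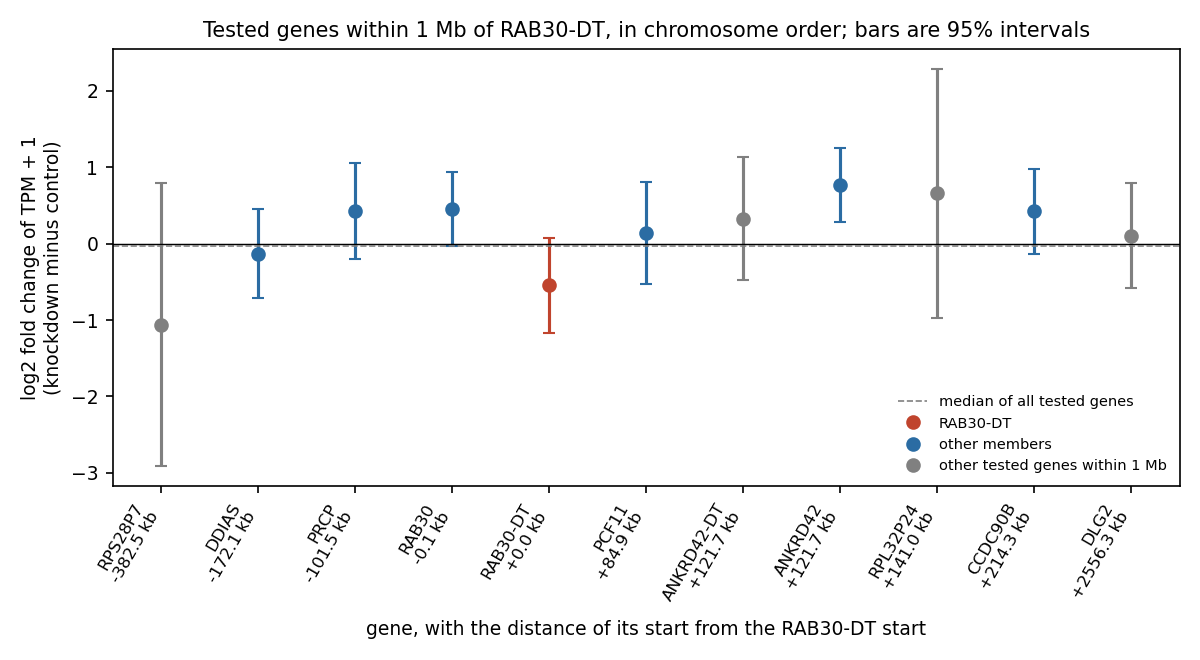
Log2 difference (knockdown minus control, log2(TPM + 1)) of the 11 tested genes within 1 Mb of RAB30-DT, ordered by where each gene starts, with 95% intervals from limma and the distance from the RAB30-DT start in kb. RAB30-DT is at -0.55 and the interval of ANKRD42, from 0.28 to 1.25, is the only one of the 11 that leaves out 0.

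The libraries differed in a way that touches these values. Within each group, replicate 1 held higher values of genes poor in G and C and replicate 3 lower ones, with a Spearman rank correlation across genes between a library's deviation and GC content of -0.595, 0.292 and 0.483 in the control and -0.518, 0.016 and 0.324 in the knockdown libraries. RAB30-DT, PRCP, CCDC90B and PCF11 were highest in replicate 1 of both groups. With each library's trend in GC content removed, the log2 difference of RAB30-DT was -0.56 (adjusted p = 0.116, limma), and its groups no longer overlapped, which in the lower direction then held for 18.0% of all genes. PRCP (0.38, adjusted p = 0.119), CCDC90B (0.39, adjusted p = 0.0764) and ANKRD42 (0.75, adjusted p = 0.0714) then had all knockdown libraries above the controls, which held for 16.2% of all genes. RAB30 (0.41, adjusted p = 0.30) then overlapped between the groups. The log2 ratio of RAB30-DT to RAB30 was 1.81, 1.19 and 1.38 in the control replicates and 0.76, 0.88 and -0.17 in the knockdown replicates on that scale, a difference of -0.97 with no overlap.

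**Figure D4:**
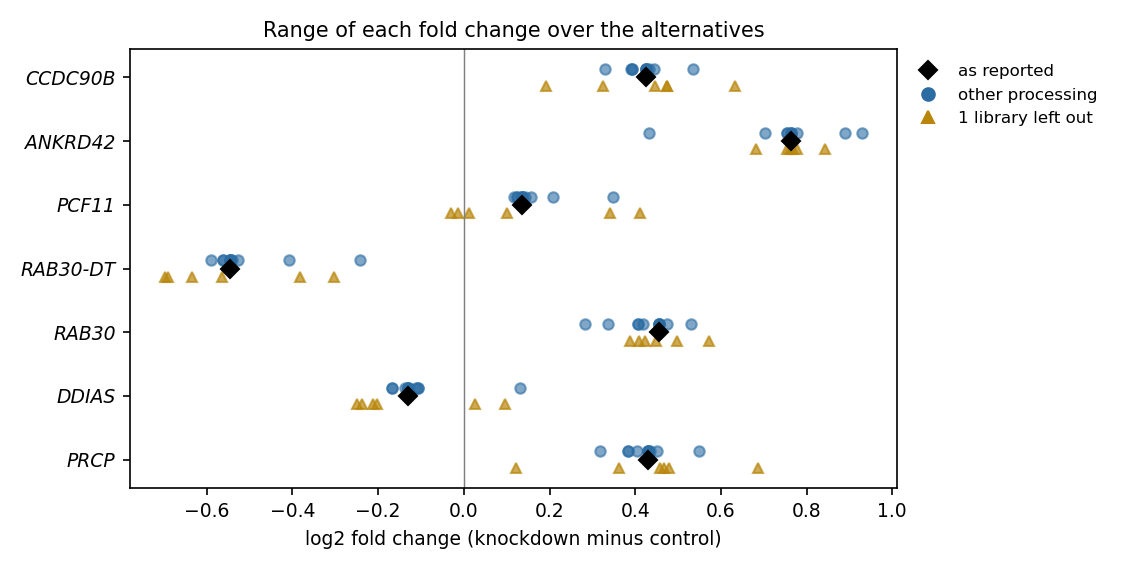
Log2 difference of each member as reported (black), under each other processing setting (blue) and with 1 library left out (gold). RAB30-DT stays between -0.70 and -0.24, RAB30, PRCP, CCDC90B and ANKRD42 stay above 0, and DDIAS and PCF11 cross 0.

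Each protein-coding member was then set among the genes of its own pathway. RAB30 belongs to the Golgi Rabs, small GTPases that act in transport to, through and from the Golgi, of which 16 of 21 listed genes were tested. None was called by limma, 3 of the 16 had an unadjusted p under 0.05 (16.8% of all genes), and the median log2 difference was 0.10, with 10 genes higher and 6 lower. RAB2B, which acts at the cis side of the Golgi, was at 6.94, 8.14 and 4.7 TPM in control cells and 13.04, 15 and 15.06 TPM in knockdown cells (1.04, adjusted p = 0.0813 from limma). RAB10, a regulator of transport to the cell surface, was at 126 ± 24.7 and 88.0 ± 4.68 TPM (SD, n = 3 each), with a difference of -0.50 (adjusted p = 0.215, limma).

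PCF11 belongs to the cleavage and polyadenylation factors, of which all 20 listed genes were tested. None was called by limma and 3 of the 20 had an unadjusted p under 0.05 (16.8% of all genes). PCF11 was among the 3 that were higher, and the other 17 were lower, with a median of -0.23. For 4 of the 20 the knockdown libraries all lay below the controls, beside the 13.4% of all genes given above. CSTF2, which binds the element downstream of the cleavage site, was at 39.0 ± 2.43 and 23.9 ± 1.73 TPM (SD, n = 3 each), with a difference of -0.69 (adjusted p = 0.0949, limma). PABPN1, the nuclear poly(A) binding protein, was at 136 ± 1.80 and 100 ± 4.56 TPM (SD, n = 3 each), with -0.44 (adjusted p = 0.164, limma).

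Of the genes of the mitochondrial calcium uniporter, 7 of 8 were tested, with 2 higher and 5 lower and a median of -0.05, none called by limma and 1 of the 7 with an unadjusted p under 0.05 (16.8% of all genes). MCUB, a subunit that lowers uniporter activity, had the smallest p, at 35.0 ± 3.90 and 25.2 ± 1.75 TPM (SD, n = 3 each) and a difference of -0.46 (adjusted p = 0.234, limma), and CCDC90B the next. Of the proline-specific peptidases, to which PRCP belongs, 6 of 9 were tested, with 5 higher and 1 lower and a median of 0.17, none called by limma and none with an unadjusted p under 0.05. PRCP had the smallest p, followed by PREPL, a relative of prolyl endopeptidase, at 29.5 ± 13.5 and 36.6 ± 7.51 TPM (SD, n = 3 each) with a difference of 0.38 (adjusted p = 0.585, limma).

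The genes whose levels followed RAB30-DT most closely over the 6 libraries lay elsewhere in the genome. By Pearson's r of log2(TPM + 1), these were ZBTB2 (0.998), ACACB (0.993), CCDC14 (0.991), TRA2A (0.990) and PYGL (0.990), and 88 genes had an r over 0.95. For RAB30 they were SLC26A1 (0.989), PIERCE1 (0.986), CD22 (0.981), GVQW3 (0.980) and PLS3-AS1 (0.974). None of these 10 genes was called. The r of RAB30-DT with RAB30 was -0.657, and among the 6 neighbours the highest with RAB30-DT was that of DDIAS, at 0.804. These values describe 6 libraries that share groups and GC trends, and carry no test.

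The labelled cell type was checked against markers. Of 7 hepatocyte genes, ALB, APOB, HNF4A and TTR were at 0 in all libraries, and SERPINA1 made up nearly all of the sum, which ran from 18.1 to 24.0 TPM in control and from 28.2 to 37.2 TPM in knockdown cells. Of 6 endothelial genes, KDR was at 0 and PECAM1, CDH5, VWF and TEK stayed under 1 TPM in all libraries, and TIE1 reached 3.08 TPM in control replicate 2 only, so the defining endothelial markers were absent or near 0. The mesenchymal gene VIM dominated its list of 5, whose sum ran from 3808 to 4026 TPM in control and from 4363 to 4813 TPM in knockdown cells. The rest of that list was far lower over the 6 libraries. FN1 was at 12.83 to 22.83 TPM, CDH2 at 1.77 to 5.54, COL1A1 at 0.59 to 2.41 and COL1A2 at 0 to 0.12. The part of SERPINA1 and VIM in the results on the members was not tested.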

How the data were processed

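Libraries were made from poly(A)-selected mRNA, per the labels. The authors trimmed paired-end reads with fastp v0.23.2, aligned them with STAR v2.7.10b and quantified genes with RSEM v1.3.0 (GENCODE Release 45), as the study's methods state. The submitters' processing notes name HISAT2 2.0.5 and hg38 instead. All 62700 versioned identifiers were those of GENCODE Release 44, used here. They deposited TPM per gene, which keep no read number, so depth is unknown and precision rests on 3 libraries per group. The knockdown columns are named sh1 to sh3, so that more than 1 hairpin is a possible reading.

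Values were analysed as log2(TPM + 1) where the mean reached 1 TPM, with lmFit and eBayes (trend) of limma 3.58.1 in R 4.3.3, two-sided and without a replicate block. Calls used an adjusted p (Benjamini-Hochberg) under 0.05. Single values had exact permutation tests over libraries. The fit was tested on simulated data. Of 200 genes changed there, it called 0 at a log2 change of 0.5, 4 at 1 and 147 at 2. Members, lists and tests were chosen with earlier results of these data known. Named genes were the members, every tested gene within 1 Mb, per list the called genes or the 2 with the smallest p, the 5 most like RAB30-DT and RAB30, and markers. MIR4300HG and LINC02734 were named outside this rule, after their values had been seen. Alternatives were pseudocounts of 0.1 and 5, no filter or at least 5 TPM, median-of-ratios and quantile scaling, eBayes without trend, arrayWeights, removal of GC trends (loess, span 0.3), a replicate block, windows of 250 kb and 5 Mb, and each library left out.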

Additional observations from a re-analysis of the deposited data

How the results depend on the processing

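RAB30-DT, RAB30, PRCP and CCDC90B kept their direction and stayed above the threshold of adjusted p under all 17 alternatives, with log2 differences from -0.70 to -0.24, 0.28 to 0.57, 0.12 to 0.69 and 0.19 to 0.63. ANKRD42 ran from 0.43 to 0.93 and was called in 1 of 16, with arrayWeights (0.89, adjusted p = 0.00596), where 3218 genes were called in all against 146, and it could not be fitted with a mean of at least 5 TPM. DDIAS was 0.13 with arrayWeights, and between -0.25 and 0.10 with 1 library left out. PCF11 was between -0.031 and 0.41 with 1 library left out. The log2 ratio of RAB30-DT to RAB30 stayed between -1.21 and -0.69. Within 1 Mb, 2 of the 11 tested genes were called with arrayWeights, which called 23.0% of all genes, and none otherwise. The median there, 0.33 as reported, was 0.14 at a pseudocount of 5, 0.19 without a filter, and between 0.12 and 0.45 with 1 library left out (lowest without control replicate 3). In the lists none was called as reported. With arrayWeights, 2 of 16 Golgi Rabs (RAB2B and RAB10), 5 of 20 cleavage and polyadenylation genes (CSTF2, PABPN1, CPSF6, CSTF3 and FIP1L1) and 1 of 7 uniporter genes (MCUB) were called, beside 23.0% of all genes. Removing the GC trend (1140 genes called in all, 8.13%) called 1 Golgi Rab (RAB2B) and 1 cleavage gene (CSTF2). The cause of these differences was not tested. The count over all genes was 13 without a filter and from 12 to 489 with 1 library left out.

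Same-numbered libraries deviated together with correlations of 0.410, 0.036 and 0.279. Replicates 1 and 3 were each the best match of their own number in the other group, and replicate 2 of each group matched replicate 3 best. The labels state no pairing, so the main fit did not take the numbers as pairs, although part of the deviation was shared by number. With a replicate block, the log2 ratio of RAB30-DT to RAB30 was -1.0 (p = 0.25, an exact test of the 3 paired differences and the smallest it allows). The block called 861 genes in all (6.14%), with RAB2B and CSTF2 among them, 1 gene in each of their lists. With the block and the GC trend removed, a pairing of choices added after the data were seen, 1077 genes were called in all (7.68%), with 2 Golgi Rabs (RAB2B and RAB10) and 1 cleavage gene (CSTF2). The block called no member. Depth is unknown, so no counting limit can be given.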
